A study of Arabidopsis thaliana with 15 samples.

Results

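The 10 genes described here belong to the breakdown of amino acids and to the response of plant cells to low energy. They were MCCB, ETFQO, D2HGDH, ETFALPHA, ETFBETA, AT4G33150, ALDH6B2, AKINBETA1, AT4G27450 and ATG8E. Each was chosen by name, and all 10 had 1 probe set on the Affymetrix ATH1 array that the platform annotation gives to a single gene, out of 13513 such probe sets and 22746 tested. They were put together with results of these arrays known, and which comparison led to the choice is not recorded, so their own levels and differences are given as a description. Where limma's calls of these genes are counted, nothing is read from the counts. The label held for their known functions, but they did not form a uniform group on these arrays. AKINBETA1, MCCB and ATG8E were most like the mean of the other 9 over the 15 arrays (r = 0.967, 0.965 and 0.904), whereas ETFQO was hardly like it (r = 0.189). These r are descriptions of arrays that fall into 5 treatment groups.

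The arrays measured transcripts in roots of Arabidopsis thaliana Col-0 that had germinated on 10 µM NPA, which blocks polar auxin transport and thereby holds back lateral roots. All 5 groups shared this growth to 3 days after germination. At that age roots were taken directly (before treatment), or seedlings first spent 2 h or 6 h on medium with NAA (10 µM), an auxin analogue, or with naxillin (50 µM), a compound that induces lateral roots and is labelled as not auxin-like. Each group had 3 arrays from 3 independent experiments, and each RNA sample came from 500 root pieces with the meristems left out. No seedlings were moved to medium without a compound. The effects of the compound, the transfer and the elapsed time therefore cannot be told apart in a comparison with roots before treatment. For the treated arrays no NPA level during the treatment is recorded, so a change in NPA cannot be told apart from these either. NAA and naxillin were given at different concentrations, so that their values are set side by side as these exposures and not as equal doses.

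In plants short of sugar, mitochondria can burn amino acids in place of carbohydrate. Leucine, isoleucine and valine are broken down through acyl-CoA intermediates, and lysine through saccharopine and, further on, 2-hydroxyglutarate. Some of these steps pass their electrons to the electron transfer flavoprotein, a pair of alpha and beta subunits, which hands them to ETF-ubiquinone oxidoreductase and so to the respiratory chain. The SnRK1 kinase complex switches plant cells to this mode when energy is low. Autophagy, in which ATG8 proteins decorate the membrane that encloses cell contents, supplies amino acids from the cell's own proteins. Transcripts of many of these genes are known to rise in darkness and sugar starvation.

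Values are RMA values on the log2 scale, on which a step of 1 is 1 doubling. The level of one probe set is not compared with that of another, since probes differ in brightness. Array medians lay between 7.08 and 7.18, the correlation of replicates over probe sets between 0.9840 and 0.9959, and no arrays were identical. All values of the 10 genes were above the lower quartile of every array (4.69 to 4.80). In such samples fewer cells of a type and less RNA per cell cannot be told apart. Tissue markers were thinly covered by named probe sets. Of 12 root markers only EXPA7, a root hair expansin, was measured, with group means of 5.73 to 8.44. Of 5 shoot markers RCA, the Rubisco activase gene, had group means of 9.08 to 11.08, and LHCB4.2, a light-harvesting protein gene, 5.27 to 8.37. Both shoot markers lay above the lower quartile in all 5 groups, and the label of root tissue could be checked against EXPA7 only. Before treatment the RCA mean of 11.08 was far up the array scale, where a mean of 10.96 already exceeded 94.6% of all probe sets. EXPA7 then had a mean of 6.87. Probe brightness limits what such positions say.

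After NAA the 10 genes were lower than before treatment, and most of them stayed lower at 6 h. At 2 h every one of the 10 was lower on all 3 NAA arrays than on all 3 arrays before treatment, with a median difference of −0.75 beside −0.03 over all probe sets. At 6 h the median was −1.06 beside −0.03. With naxillin the median was −0.33 at 2 h and −0.12 at 6 h. The largest differences at 6 h of NAA were those of AT4G33150, the enzyme that starts lysine breakdown, and of ATG8E, at 5.11-fold and 3.84-fold lower.

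**Figure D1:**
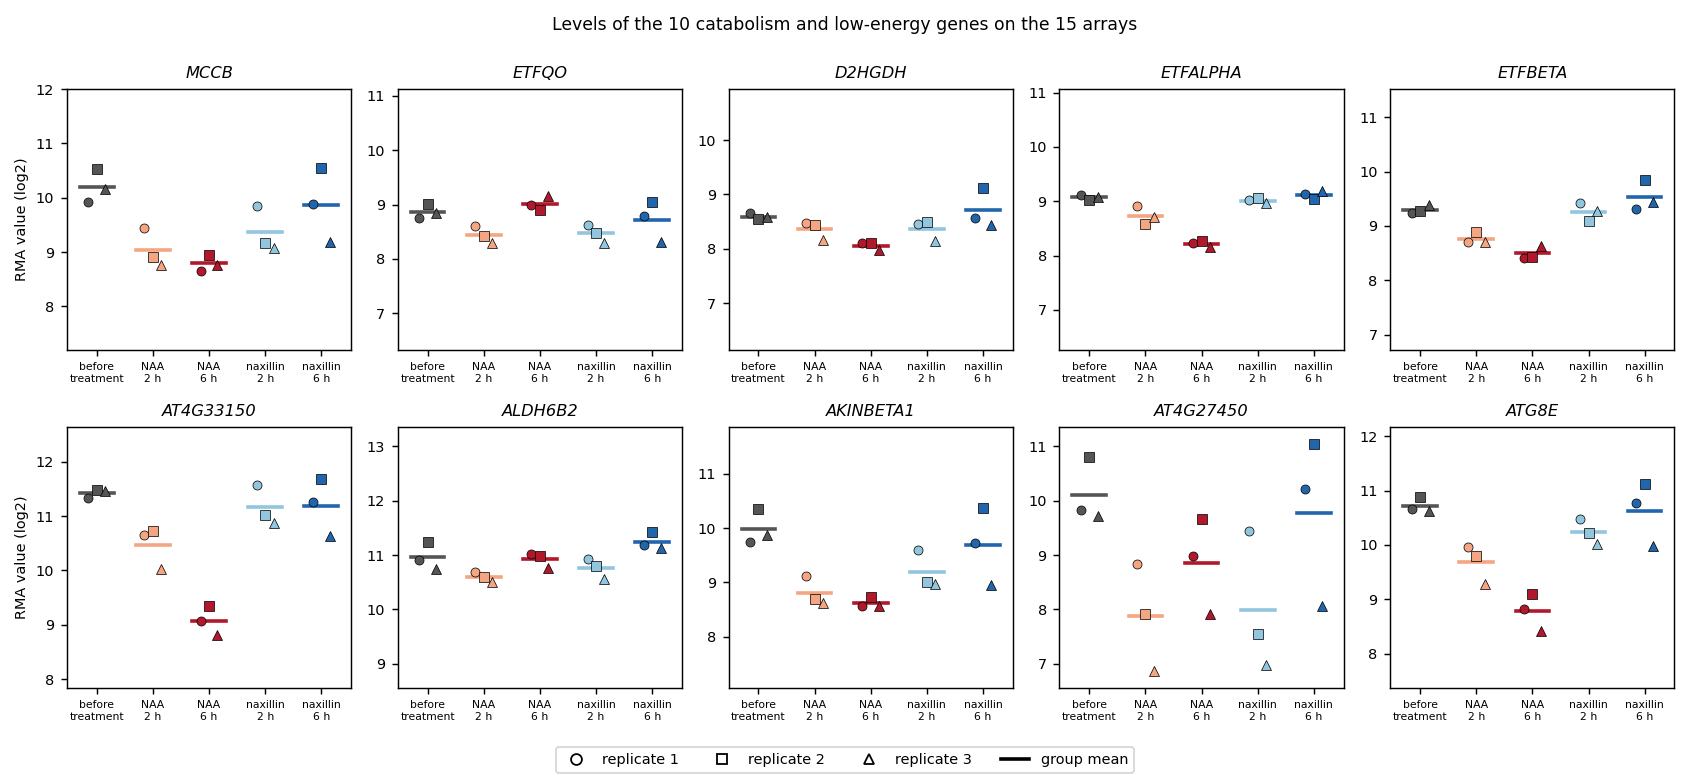
Levels of the 10 genes on the 15 arrays, 1 panel per gene. The y axis is the RMA value (log2, with the same span in every panel), the x axis the 5 groups; symbols mark the replicate number and bars the mean of 3 arrays. AT4G33150 and ATG8E are lowest on the 3 arrays of NAA 6 h, and AT4G27450 spreads widest within groups.

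AT4G33150 encodes the bifunctional lysine-ketoglutarate reductase and saccharopine dehydrogenase. Its level was 11.34, 11.49 and 11.46 before treatment, 10.66, 10.73 and 10.03 after 2 h of NAA, and 9.07, 9.35 and 8.81 after 6 h of NAA. With naxillin it was 11.58, 11.03 and 10.88 at 2 h and 11.26, 11.68 and 10.63 at 6 h. The 3 groups before treatment, at 2 h and at 6 h of NAA thus formed steps that did not overlap, while the naxillin arrays overlapped with those before treatment. The mean was 11.43 ± 0.08 before treatment and 9.07 ± 0.27 after 6 h of NAA (SD, n = 3), a difference of −2.35 (SE 0.26, 95% interval −2.91 to −1.80). At 2 h of NAA it was −0.96 (SE 0.26). With naxillin it was −0.27 at 2 h (interval −0.82 to 0.29) and −0.24 at 6 h (−0.79 to 0.32).

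D2HGDH (AT4G36400), the mitochondrial D-2-hydroxyglutarate dehydrogenase that acts in lysine breakdown, showed a smaller drop. It read 8.65, 8.54 and 8.59 before treatment, 8.48, 8.44 and 8.16 at 2 h of NAA, and 8.10, 8.11 and 7.97 at 6 h. The naxillin arrays read 8.46, 8.50 and 8.14 at 2 h and 8.57, 9.12 and 8.43 at 6 h. The NAA 6 h arrays were lower than those of every other group, and the naxillin 6 h arrays spanned those before treatment. At 2 h the arrays of both compounds lay under those before treatment, with a difference of −0.23 for each and no call. The difference was −0.53 (SE 0.16) at 6 h of NAA and 0.11 at 6 h of naxillin. The latter turned to −0.03 when the arrays were scaled on the poly-A spike-in controls.

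The electron transfer flavoprotein genes did not move as 1 unit. ETFALPHA (AT1G50940), the alpha subunit, was the steadiest of the 10 between replicates. It read 9.11, 9.03 and 9.07 before treatment, 8.91, 8.59 and 8.71 at 2 h of NAA, and 8.24, 8.26 and 8.15 at 6 h. With naxillin it stayed between 8.96 and 9.06 at 2 h and between 9.04 and 9.19 at 6 h, within reach of the level before treatment. The differences were −0.34 and −0.86 with NAA (SE 0.08), and −0.06 and 0.05 with naxillin at 2 h and 6 h, the last being −0.09 under the spike-in scaling. For ETFALPHA the interval at 6 h of naxillin ran from −0.13 to 0.24, and at 6 h of NAA from −1.04 to −0.67.

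ETFBETA (AT5G43430), the beta subunit, read 9.24, 9.27 and 9.38 before treatment, 8.70, 8.88 and 8.70 at 2 h of NAA and 8.41, 8.43 and 8.64 at 6 h. With naxillin it read 9.42, 9.10 and 9.27 at 2 h and 9.31, 9.84 and 9.45 at 6 h. The NAA arrays of both times lay under all others, and the naxillin arrays overlapped with those before treatment. The difference was −0.54 and −0.80 with NAA (SE 0.13), and with naxillin −0.04 at 2 h, which turned to 0.01 under median centring, and 0.23 at 6 h.

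ETFQO (AT2G43400), which encodes the oxidoreductase that takes electrons from the flavoprotein, went another way. It read 8.75, 9.01 and 8.84 before treatment and 8.61, 8.42 and 8.30 at 2 h of NAA, but 8.99, 8.90 and 9.16 at 6 h of NAA. With naxillin it read 8.63, 8.47 and 8.30 at 2 h and 8.79, 9.05 and 8.31 at 6 h. The arrays of both compounds at 2 h lay under those before treatment, and NAA 6 h had the highest group mean of this gene (9.02 ± 0.13). From 2 h to 6 h of NAA the difference was 0.58 (SE 0.16), where ETFALPHA had −0.52 (SE 0.08) and ETFBETA −0.27 (SE 0.13).

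**Figure D2:**
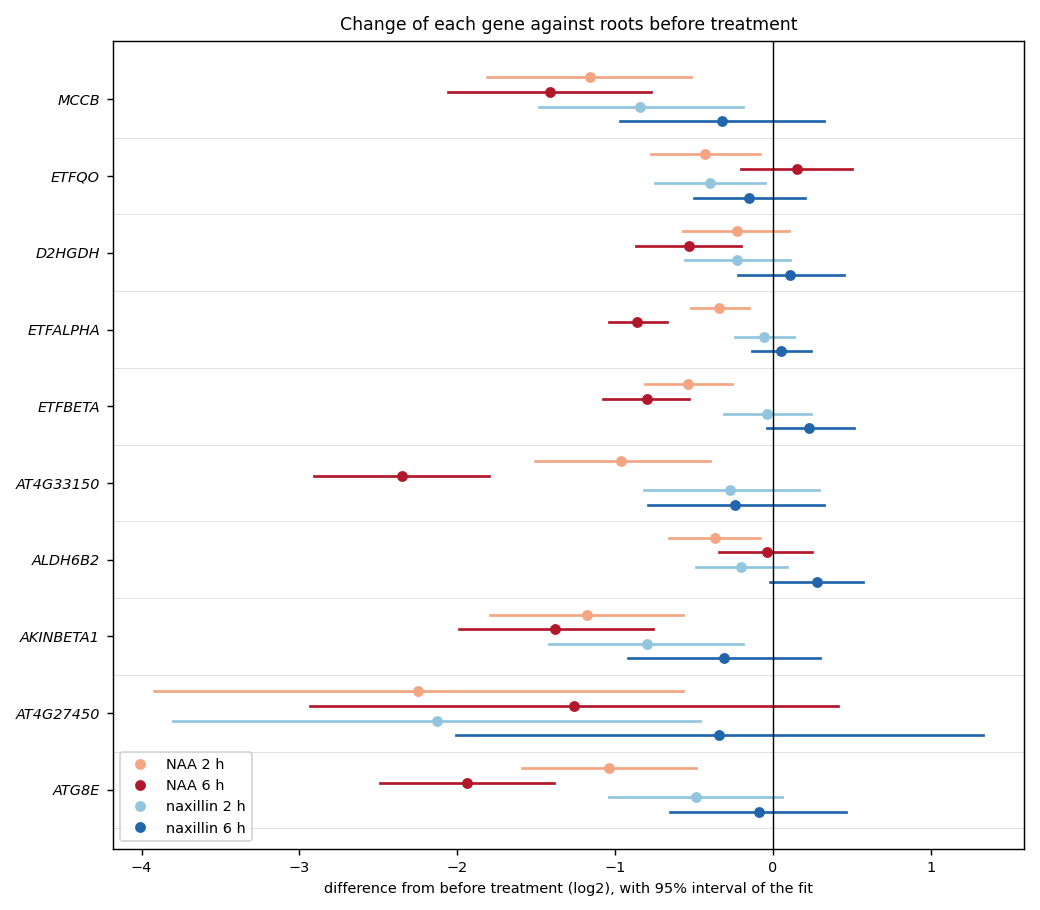
Difference of each of the 10 genes from roots before treatment (log2) in the 4 treated groups. Points are the estimates of the fit and lines their 95% intervals. The NAA 6 h points reach −2.35 for AT4G33150 and −1.94 for ATG8E, and the intervals of naxillin at 6 h include 0 for all 10 genes.

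Of the 2 members in the breakdown of branched-chain amino acids, MCCB was lower with NAA and ALDH6B2 much less so. MCCB (AT4G34030), the beta subunit of 3-methylcrotonyl-CoA carboxylase of the leucine pathway, read 9.92, 10.52 and 10.16 before treatment, 9.44, 8.91 and 8.77 at 2 h of NAA and 8.66, 8.95 and 8.76 at 6 h. With naxillin it read 9.84, 9.17 and 9.07 at 2 h and 9.89, 10.55 and 9.18 at 6 h. All arrays of NAA and of naxillin at 2 h lay under those before treatment, and the naxillin 6 h arrays reached from below to above them. The difference was −1.16 and −1.41 with NAA (SE 0.30). With naxillin it was −0.84 (interval −1.48 to −0.19) at 2 h and −0.32 (−0.97 to 0.32) at 6 h.

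ALDH6B2 (AT2G14170), the methylmalonate semialdehyde dehydrogenase late in valine breakdown, read 10.91, 11.24 and 10.74 before treatment, 10.68, 10.59 and 10.50 at 2 h of NAA and 11.02, 10.98 and 10.76 at 6 h. The naxillin arrays read 10.93, 10.79 and 10.56 at 2 h and 11.18, 11.42 and 11.12 at 6 h. Only the NAA 2 h arrays lay under all those before treatment. The differences were −0.37 and −0.04 with NAA and −0.20 and 0.28 with naxillin (SE 0.14). The value at 6 h of NAA turned to 0.02 under median centring and 0.19 under the spike-in scaling.

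The signalling and recycling members were both lower with NAA. AKINBETA1 (AT5G21170), a regulatory beta subunit of SnRK1, read 9.75, 10.35 and 9.87 before treatment, 9.11, 8.70 and 8.63 at 2 h of NAA and 8.56, 8.73 and 8.57 at 6 h. With naxillin it read 9.60, 9.01 and 8.97 at 2 h and 9.72, 10.37 and 8.96 at 6 h. The order of its groups was that of MCCB, with NAA 6 h lowest and before treatment highest, and each neighbour in that order overlapped with the next. The differences were −1.18 and −1.38 with NAA, and −0.80 and −0.31 with naxillin (SE 0.29).

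ATG8E (AT2G45170), an ATG8 protein of the autophagosome membrane, read 10.66, 10.88 and 10.62 before treatment, 9.97, 9.79 and 9.29 at 2 h of NAA and 8.83, 9.09 and 8.42 at 6 h. With naxillin it read 10.47, 10.22 and 10.01 at 2 h and 10.77, 11.13 and 9.99 at 6 h. As for AT4G33150, the arrays before treatment, at 2 h and at 6 h of NAA formed steps that did not overlap. The mean was 10.72 ± 0.14 before treatment and 8.78 ± 0.33 at 6 h of NAA (SD, n = 3). The differences were −1.04 and −1.94 with NAA, and −0.49 and −0.09 with naxillin (SE 0.26).

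AT4G27450, a protein with YGL and LRDR motifs whose transcript is known as a marker of sugar starvation, was low at 2 h of both compounds. It read 9.82, 10.80 and 9.71 before treatment, 8.83, 7.91 and 6.87 at 2 h of NAA and 9.45, 7.54 and 6.97 at 2 h of naxillin. At 6 h it read 8.98, 9.66 and 7.91 with NAA and 10.21, 11.05 and 8.07 with naxillin. Both sets of 2 h arrays lay under those before treatment, and the naxillin 6 h arrays spanned them. The differences were −2.25 and −1.26 with NAA, and −2.13 and −0.34 with naxillin. The SE of 0.78 was the largest of the 10, and at 6 h of NAA the interval ran from −2.93 to 0.41.

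Read against all probe sets, 7 of the 10 were called lower and 0 higher after 2 h of NAA at an adjusted p under 0.05 (limma, Benjamini-Hochberg), where 15.3% of all probe sets were called lower. All 10 had arrays wholly under those before treatment, as had 22.4% of all probe sets. The 7 were MCCB, ETFALPHA, ETFBETA, AT4G33150, AKINBETA1, AT4G27450 and ATG8E. After 6 h of NAA 7 were called lower and 0 higher, where 29.4% of all probe sets were called lower, and 8 had arrays wholly lower, beside 33.6%. D2HGDH took the place of AT4G27450 among these. From 2 h to 6 h of NAA, ETFALPHA, AT4G33150 and ATG8E were called lower still and ETFQO higher, where 21.6% of all probe sets were called lower and 19.9% higher. In that comparison ALDH6B2 was called higher as well with the replicate block, without replicate 2 before treatment, without NAA 6 h replicate 3 and under the spike-in scaling. ATG8E was not called without NAA 2 h replicate 1 or NAA 6 h replicate 3, and D2HGDH was called lower without naxillin 6 h replicate 2. With the block AT4G27450 was called lower at 6 h of NAA. Since the 10 were chosen with such results known, nothing is read from these counts. Leaving out 1 array, 5 to 8 were called at 2 h and 7 at 6 h in each case.

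With naxillin limma called 0 of the 10 in either direction at 2 h (4 lower and 0 higher at an unadjusted p under 0.05), where 6.16% of all probe sets were called lower, and 6 had arrays wholly lower, beside 17.9%. At 6 h limma called 0 (also 0 at an unadjusted p under 0.05), where 0.580% were called higher and 0.382% lower, and 0 had arrays wholly apart, beside 6.90% of all probe sets wholly higher and 11.4% wholly lower. All 10 were higher at 6 h than at 2 h of naxillin in their means, by a median of 0.37. In that comparison limma called 0 (3 at an unadjusted p under 0.05), where 0.813% of all probe sets were called higher. The shares of all probe sets called are at an adjusted p under 0.05. No share was counted at an unadjusted p, so the unadjusted counts have no background beside them. The count at 2 h of naxillin rose to 2 called lower without replicate 1 of that group or without replicate 2 of naxillin 6 h, and to 4 without replicate 3 of naxillin 6 h.

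Between the compounds the 10 were mostly higher with naxillin. At 2 h the median of naxillin minus NAA was 0.30. ETFALPHA (0.28, SE 0.08) and ETFBETA (0.50, SE 0.13) were called higher, where 7.39% of all probe sets were, and the arrays of 4 genes were wholly higher with naxillin, beside 14.7%. At this time MCCB (0.32, interval −0.32 to 0.97), AKINBETA1 (0.38, −0.24 to 0.99) and AT4G27450 (0.12, −1.55 to 1.79) overlapped between the compounds. Leaving out 1 array changed the count of 2 to between 0 and 3: it was 0 without NAA 2 h replicate 3 or naxillin 2 h replicate 1, 1 without NAA 2 h replicate 1 or 2, NAA 6 h replicate 1, naxillin 2 h replicate 2 or 3, or naxillin 6 h replicate 1, and 3 without naxillin 6 h replicate 3.

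At 6 h the median of naxillin minus NAA was 0.98, beside 0.02 over all probe sets. The differences were 2.12 (SE 0.26) for AT4G33150, 1.85 (SE 0.26) for ATG8E, 1.09 (SE 0.30) for MCCB, 1.07 (SE 0.29) for AKINBETA1, 1.04 (SE 0.13) for ETFBETA, 0.91 (SE 0.08) for ETFALPHA and 0.65 (SE 0.16) for D2HGDH. These 7 were called higher, where 27.2% of all probe sets were, and 8 of the 10 had arrays wholly higher, beside 30.7%. They are also the 7 called lower at 6 h of NAA, in a comparison that shares the NAA 6 h arrays. ETFQO stood at −0.30 (interval −0.65 to 0.05) and ALDH6B2 at 0.32. Under the spike-in scaling ALDH6B2 turned to −0.06, ETFQO moved to −0.68, D2HGDH to 0.27, ETFALPHA to 0.53 and ETFBETA to 0.66. MCCB moved to 0.71, AKINBETA1 to 0.69 and AT4G27450 to 0.55. With the replicate block ALDH6B2 was called higher too. AT4G27450 had 0.92 with an interval of −0.75 to 2.59.

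How the scaling is set bears on the 6 h values. RMA brings all arrays to 1 distribution. As an alternative, the RMA values of each array were shifted by the mean of its 12 poly-A spike-in control probe sets. These control values had themselves passed through RMA, so the shift comes on top of RMA and does not undo it. This spike-in scaling moved the array-wide median at 6 h of NAA from −0.03 to 0.21. That of naxillin minus NAA at 6 h moved from 0.02 to −0.36. Under it 20.0% of all probe sets were called lower and 41.5% higher at 6 h of NAA, in place of 29.4% and 22.8%, and 6 of the 10 genes were called lower, without D2HGDH (−0.30), and 1, ETFQO (0.38), higher. For naxillin minus NAA at 6 h, 59.0% of all were then called lower and 14.2% higher, in place of 23.5% and 27.2%. There 6 of the 10 were called higher and 1, ETFQO, lower, and the median of the 10 was 0.60.

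The other genes of the same pathways were not chosen for their values one by one, and for them the tests are given. The lists were still drawn up with earlier results of these data known. Their genes share the arrays with the 10, so these tests are no independent check on the 10. The 8 lists held 130 genes, the 10 included, and 40 others had a probe set naming 1 gene. Among them were 16 of 41 listed for autophagy, 4 of 19 for other amino acid breakdown, 2 of 24 low-energy markers and 2 of 9 for SnRK1. Of 40 such genes in 8 lists, 23 were lower and 8 higher after 6 h of NAA, 11 lower and 3 higher after 2 h, 1 lower and 2 higher after 2 h of naxillin, and 0 after 6 h of naxillin (limma). At an unadjusted p under 0.05 that last count was 5 higher and 1 lower. No share over all probe sets was counted at that threshold, and those given next are at an adjusted p under 0.05. The shares over all probe sets were 29.4% lower and 22.8% higher at 6 h of NAA, 15.3% and 10.5% at 2 h, 6.16% and 4.40% at 2 h of naxillin, and 0.382% and 0.580% at 6 h of naxillin. Between the compounds, 1 was higher and 2 lower with naxillin at 2 h, beside 7.39% and 8.68%, and 23 were higher and 7 lower at 6 h, beside 27.2% and 23.5%. Under the spike-in scaling that last count was 13 higher and 11 lower, beside 14.2% and 59.0%. In the interaction of compound and time 18 of the 40 were called, beside 30.3% of all probe sets. The median difference of the 40 at 6 h of NAA was −0.55, beside −0.03 over all probe sets. At 2 h of NAA the 11 became 6 and 5 without replicate 1 and 2 before treatment, and 5 without NAA 2 h replicate 3. The 1 lower at 2 h of naxillin became 6 without replicate 1 of that group, 5 without replicate 3 of naxillin 6 h and 2 without NAA 2 h replicate 2. It became 0 without any of the 3 arrays before treatment or of NAA 6 h, NAA 2 h replicate 3, naxillin 2 h replicate 2 or 3, or naxillin 6 h replicate 1.

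In branched-chain amino acid breakdown, 8 further genes were measured. After 6 h of NAA 4 fell and 2 rose, beside 29.4% and 22.8% of all probe sets, with a median of −0.38. IVD, isovaleryl-CoA dehydrogenase, the step before MCCB and itself a donor to the flavoprotein, fell from 10.85, 11.45 and 11.03 to 9.65, 9.90 and 9.34, by −1.49 (SE 0.44, limma adjusted p = 0.0107). AT4G20930, a 3-hydroxyisobutyrate dehydrogenase of valine breakdown, fell by 0.82 (SE 0.15, limma adjusted p = 0.000273). AT5G09300, the E1 alpha subunit of the branched-chain keto acid dehydrogenase, rose after NAA and after 2 h of naxillin. The rise was 0.48 and 0.65 with NAA and 0.50 at 2 h of naxillin (SE 0.09, limma adjusted p = 0.00114, 1.96e-05 and 0.00323), and stood at 0.34 at 6 h of naxillin (adjusted p = 0.0823, or 0.0491 under median centring).

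The widest rise of that list was at AT4G31810, a protein of the enoyl-CoA hydratase and isomerase family. It read 7.46, 7.04 and 7.47 before treatment and 9.48, 9.32 and 9.51 after 6 h of NAA, a rise of 2.11 (SE 0.27, limma adjusted p = 1.38e-05). At 6 h of naxillin it read 7.11, 6.43 and 7.71. MCCA, the alpha subunit that pairs with MCCB, stood at −1.30 at 6 h of NAA (SE 0.47, limma adjusted p = 0.0315). Its call was lost without replicate 2 (adjusted p = 0.105) or 3 (0.0528) before treatment and without NAA 6 h replicate 1 (0.069) or 3 (0.0889), and under the spike-in scaling (0.0513). At 2 h of NAA IVD and MCCA stood at −1.37 and −1.51 (limma adjusted p = 0.0345 and 0.0294). Both calls were lost in 5 of 15 fits that left out 1 array. For IVD the adjusted p was 0.051, 0.125 and 0.0698 without replicate 1, 2 and 3 before treatment, and 0.0646 and 0.153 without NAA 2 h replicate 2 and 3. For MCCA it was 0.0511, 0.11, 0.056, 0.0774 and 0.124 without the same arrays.

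Of the lysine pathway, 3 further genes were measured and 1 was called lower at 6 h of NAA, beside 29.4% of all probe sets. AT1G07040, a hydroxyglutarate synthase late in lysine breakdown, stood at −0.60 (SE 0.22, limma adjusted p = 0.0361). Without replicate 1 or 2 before treatment its adjusted p was 0.0734 and 0.158, and without NAA 6 h replicate 1, 2 and 3 it was 0.0876, 0.0681 and 0.0713. It was 0.0697 under median centring and 0.141 under the spike-in scaling. ALDH7B4, an aminoadipate semialdehyde dehydrogenase, had −0.17 (adjusted p = 0.553).

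In other amino acid breakdown, MGL, methionine gamma-lyase, had the largest change of all 40 at 6 h of NAA. It read 8.71, 10.15 and 9.34 before treatment and 5.63, 6.72 and 5.13 after 6 h of NAA, and fell by 3.57 (SE 0.63, limma adjusted p = 0.000229). With naxillin at 6 h it read 9.37, 10.54 and 7.98, which spanned the arrays before treatment. AT5G38710, a proline dehydrogenase, went the other way, by 1.86 (SE 0.26, limma adjusted p = 2.65e-05). Of these 4 genes 3 fell and 1 rose, beside 29.4% and 22.8% of all probe sets. The others that fell were DELTA-OAT, ornithine aminotransferase, by 0.53 (adjusted p = 0.00454) and the urease gene URE by 0.31 (0.0111). Neither was called under the spike-in scaling (0.0708 and 0.547), and URE was not called without replicate 1 before treatment (0.0532) or NAA 6 h replicate 3 (0.0579).

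Of 9 listed SnRK1 genes, only the beta subunit genes AT4G16360 (AKINBETA2) and AT2G28060 (AKINBETA3) were measured beside AKINBETA1. AT4G16360 fell by 0.42 at 6 h of NAA (SE 0.09, limma adjusted p = 0.000837), or stood at −0.19 (0.0925) under the spike-in scaling. AT2G28060 had −0.04 (0.721). The bZIP transcription factor genes bZIP44 and BZIP53, of a group that acts with SnRK1, were higher with NAA, bZIP44 by 1.17 at 2 h and 0.94 at 6 h (SE 0.18, limma adjusted p = 0.00035 and 0.000479). BZIP53 rose by 0.46 at each time (SE 0.12, adjusted p = 0.00939 and 0.00386), with the call at 2 h lost without replicate 2 before treatment (0.0502).

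Of 24 listed low-energy markers, ATL8 and AT3G15450 were the 2 measured beside AT4G27450. Both had lower means at 2 h of both compounds than before treatment, as AT4G27450 had. ATL8, a RING-type ubiquitin ligase gene, read 8.67, 9.08 and 8.88 before treatment, 6.49, 5.81 and 5.93 at 2 h of NAA and 7.88, 7.90 and 8.17 at 6 h. It fell by 2.80 at 2 h of NAA (SE 0.44, limma adjusted p = 0.000383), the largest change of the 40 at that time, and stood at −0.89 at 6 h (0.107). At 2 h of naxillin it had −1.48 (adjusted p = 0.046). This call held in only 3 of the 15 fits without 1 array, those without naxillin 2 h replicate 1 or naxillin 6 h replicate 2 or 3, where the adjusted p reached 0.165 in the others, and was lost under median centring (0.0622). AT3G15450, another protein with YGL and LRDR motifs, had −1.66 at 2 h of NAA (SE 0.60, adjusted p = 0.0586) and −1.38 at 2 h of naxillin (0.173). Of the same family AILP1 fell by 0.91 (0.14 SE, adjusted p = 7.38e-05) and AT5G43830 rose by 0.93 (0.09 SE, adjusted p = 1.12e-06) at 6 h of NAA.

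Autophagy was the longest list measured. Of 16 genes beside ATG8E, 8 fell and 0 rose after 2 h of NAA, and 13 fell and 2 rose after 6 h. Over all probe sets 15.3% were called lower and 10.5% higher at 2 h, and 29.4% and 22.8% at 6 h. The 8 became 5 under median centring and under the spike-in scaling, without APG8A, ATG8F and AT5G50230. After 6 h of NAA the median of the 16 was −0.83. At 2 h of NAA 5 and 4 fell without replicate 1 and 2 before treatment, and 4 without NAA 2 h replicate 3. With naxillin 1 rose at 2 h and limma called 0 at 6 h (1 higher at an unadjusted p under 0.05), with medians of −0.18 and −0.05. Of naxillin minus NAA at 6 h, 14 of the 16 were higher and 1 lower, beside 27.2% and 23.5% of all probe sets. Under the spike-in scaling 10 were higher and 2 lower, beside 14.2% and 59.0%.

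**Figure D3:**
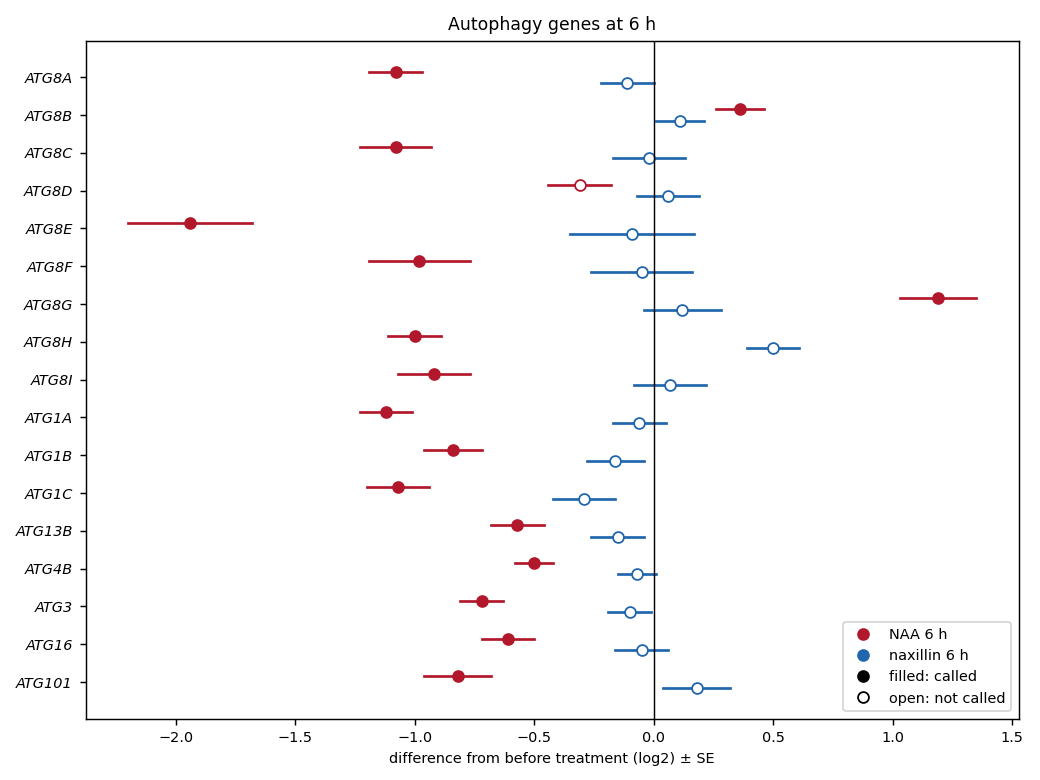
Difference of the 16 autophagy genes and ATG8E from roots before treatment at 6 h (log2, ± SE). Filled points are called at an adjusted p under 0.05, and ATG8A, ATG8I and the ATG1, ATG13B, ATG4B, ATG16 and ATG101 genes are listed in the text by their file names or tags. With NAA 13 of the 16 are called lower while ATG8B and ATG8G are called higher; with naxillin 0 are called.

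The ATG8 family itself split. APG8A (ATG8A) fell by 1.08 at 6 h of NAA (SE 0.11, limma adjusted p = 2.08e-06) and ATG8C by 1.08 (SE 0.15, 2.19e-05). ATG8F (−0.98, SE 0.21, adjusted p = 0.00121) and APG8H (ATG8I; −0.92, SE 0.15, 0.000155) also fell, and ATG8D stood at −0.31 (0.0678). ATG8G rose by 1.19 (SE 0.16, adjusted p = 1.57e-05) and ATG8B by 0.36 (SE 0.10, 0.00856). ATG8H fell by 1.00 with NAA at 6 h (SE 0.11, adjusted p = 3.69e-06) but stood at 0.50 with naxillin (0.0511), or 0.56 under median centring (0.0269). At 2 h of naxillin it was called at 0.43 (0.0286), and the call was lost without replicate 2 (0.116) or 3 (0.0992) before treatment or without naxillin 2 h replicate 1 (0.0527), 2 (0.11) or 3 (0.0515). Near-identical ATG8 copies could share probes, which was not tested.

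Genes of the kinase that starts autophagy fell together with NAA. AT3G61960 (ATG1A) fell by 0.62 at 2 h and 1.12 at 6 h (SE 0.11, limma adjusted p = 0.000781 and 7.48e-07), and AT2G37840 (ATG1C) by 0.74 and 1.07 (SE 0.13, 0.00118 and 1.14e-05). At 6 h AT3G53930 (ATG1B) fell by 0.84 (5.21e-05), AT3G18770 (ATG13B) by 0.57 (0.000476) and AT5G66930 (ATG101) by 0.82 (0.000164). The genes of the ATG8 conjugation machinery ATG3, AT5G50230 (ATG16) and AT3G59950 (ATG4B) fell by 0.72, 0.61 and 0.50 (adjusted p = 1.37e-05, 0.00041 and 0.000125). With naxillin at 6 h these 8 genes stood between −0.29 and 0.18, and none was called.

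For contrast, genes of amino acid synthesis and of the TCA cycle were looked at. AT3G58610 (ketol-acid reductoisomerase) and AT3G23940 (dihydroxyacid dehydratase), which make branched-chain amino acids, rose by 1.06 and 1.58 at 6 h of NAA (SE 0.20 and 0.22, limma adjusted p = 0.00048 and 2.52e-05). AT3G53580, diaminopimelate epimerase of lysine synthesis, rose by 0.53 (0.00257). ATBCAT-5, a branched-chain aminotransferase, fell by 0.40 (0.00767), or stood at −0.16 (0.251) under the spike-in scaling. Of 12 TCA cycle genes 5 rose and 1 fell at 6 h of NAA, beside 22.8% and 29.4% of all probe sets. Under the spike-in scaling IDH-V, AT4G26910 and AT2G20420 were called higher too, where 41.5% of all probe sets were. At 2 h of naxillin 3 of the 12 were called higher, beside 4.40%. Among these, the calls of AT5G55070 and SDH2-1 were lost in 10 and 14 of 15 fits that left out 1 array. At 6 h of naxillin none of these 4 synthesis genes was called, and 2 of the 12 TCA cycle genes rose, SDH1-1 by 0.51 (adjusted p = 0.0341) and SDH2-1 by 0.63 (0.0203). Both calls were lost without replicate 2 (0.149 and 0.103) or 3 (0.0616 and 0.103) before treatment or naxillin 6 h replicate 2 (0.0864 and 0.057) or 3 (0.115 and 0.0666). That of SDH1-1 was also lost without replicate 1 before treatment (0.0547) and under the spike-in scaling (0.0576), and that of SDH2-1 without naxillin 6 h replicate 1 (0.0681).

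The shoot markers were lower than before treatment in all 4 treated groups. At 6 h of naxillin neither marker was called in the main fit, nor was any of the 10 genes. The means of D2HGDH, ETFALPHA, ETFBETA and ALDH6B2 then lay above those before treatment, as did that of ETFQO at 6 h of NAA. None of these differences was called in the main fit. D2HGDH and ETFALPHA turned to −0.03 and −0.09 at 6 h of naxillin under the spike-in scaling. RCA stood at −0.58, −2.00, −0.55 and −0.42 and LHCB4.2 at −2.29, −3.10, −1.22 and −0.69 at 2 h and 6 h of NAA and of naxillin, in that order. Both were called lower at 6 h of NAA (limma adjusted p = 2.08e-07 and 5.39e-06), and also at 2 h of NAA and of naxillin. The RCA call at 2 h of NAA was lost in 2 of 15 fits that left out 1 array. At 2 h of naxillin (limma adjusted p = 0.0474 and 0.0462) each call was lost in 10 of those 15 fits. Median centring lost both as well (0.0862 and 0.0657). EXPA7 rose by 1.02 at 2 h of NAA (0.0197), a call that was lost without replicate 3 before treatment (0.0863) or NAA 2 h replicate 2 (0.069) or 3 (0.0848), and fell by 1.13 at 6 h (0.00449). EXPA7 also rose at 2 h of naxillin, by 1.57 (limma adjusted p = 0.00495), a call held in all 15 fits that left out 1 array, and it stood at 0.81 at 6 h of naxillin (0.242). The part of these markers in the results was not tested.

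The replicates of a group differed more at these genes than at most. The SD within groups had a median of 0.29 over the 10 genes, beside 0.15 over all probe sets, from 0.09 at ETFALPHA to 1.11 at AT4G27450. In naxillin 6 h the median SD of the 10 was 0.46, where the other groups had 0.14 to 0.22 and all probe sets 0.11 to 0.14.

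The replicates also deviated in concert. In naxillin 6 h replicate 2, 9 of the 10 were above their group mean, by 0.48 on average over the 10, and in replicate 3, 9 were below, by an average of −0.52. In naxillin 2 h all 10 were above the mean in replicate 1 (0.36) and 9 below in replicate 3 (−0.27). In NAA 2 h 9 were above in replicate 1 (0.26) and all 10 below in replicate 3 (−0.28). NAA 6 h replicate 3 had 8 below (−0.17), and replicate 2 before treatment had 7 above (0.19).

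**Figure D4:**
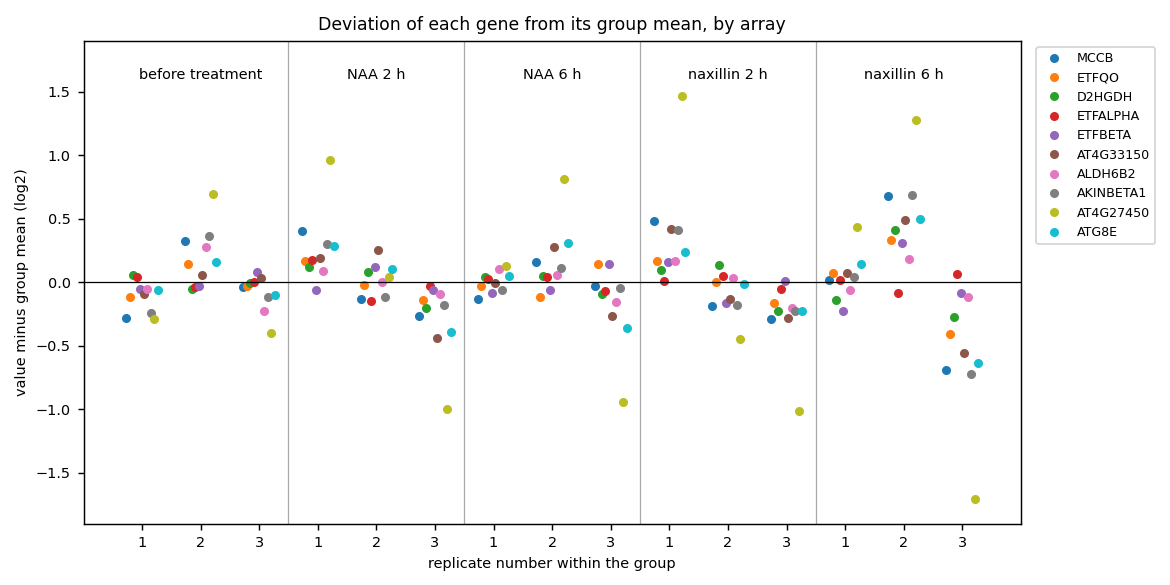
Deviation of each of the 10 genes from its group mean (log2) on the 15 arrays, with arrays in groups along the x axis and 1 colour per gene. In naxillin 6 h most points of replicate 2 lie above 0 and most of replicate 3 below, and the points furthest from 0 are those of AT4G27450.

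After group means were taken off, the deviations of 39 of the 45 pairs of genes correlated above 0, with a median r of 0.71 and a highest of 0.99, over 15 arrays with 10 degrees of freedom left. ETFALPHA stood apart, with a median r of −0.04 with the other 9, and its lowest was −0.57 with ETFBETA, its partner subunit. AKINBETA1 (median r 0.83), MCCB (0.86), AT4G33150 (0.81) and ATG8E (0.81) followed the common deviation closely. Each of these points shares its array, and so its RNA sample, with all other genes.

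Genes outside the 10 followed the same deviation. The mean deviation of the 10 had an r of 0.98 with IVD, 0.97 with MCCA, 0.94 with AT5G50230 (ATG16), 0.92 with MGL and 0.89 with ATL8. It ran opposite at AT4G31810 (r = −0.98), at the synthesis genes AT3G23940 (−0.92) and AT3G58610 (−0.91) and at AT5G55070 (−0.91), a subunit of the oxoglutarate dehydrogenase complex of the TCA cycle. Of all probe sets, 5.49% had an r above 0.8 and 6.88% one below −0.8, so that the deviation was wide in the transcriptome. The shoot markers RCA (0.80) and LHCB4.2 (0.87) moved with it, and their part in it was not tested.

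**Figure D5:**
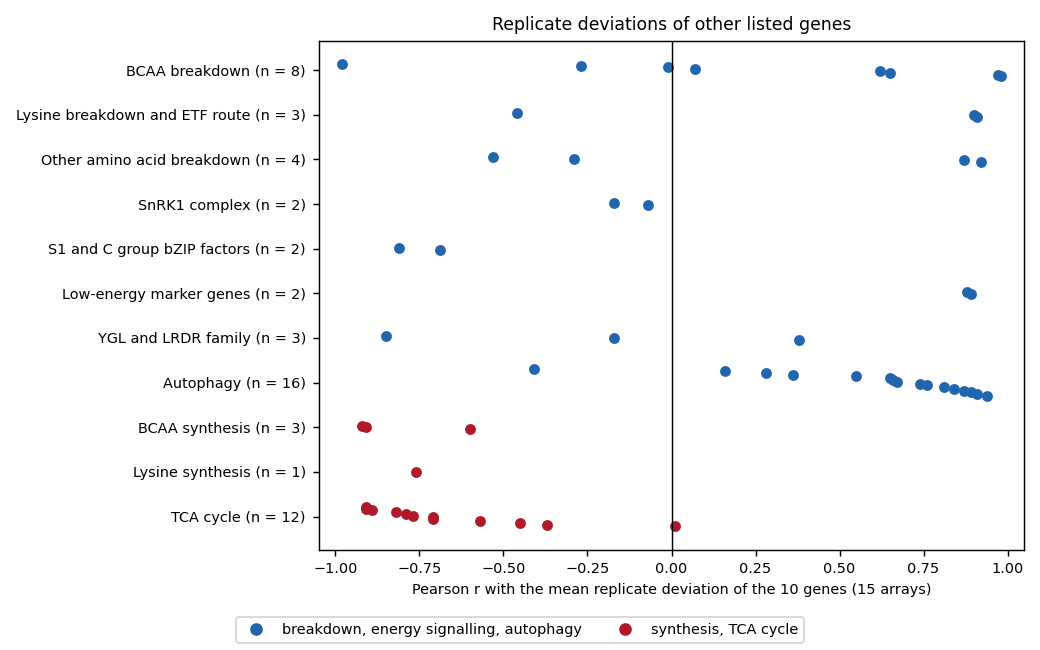
Pearson r over the 15 arrays between the deviation of each listed gene from its group means and the mean deviation of the 10 genes, with 1 row per list. Amino acid breakdown and autophagy hold genes near 1, such as IVD at 0.98, but AT4G31810 of branched-chain breakdown lies at −0.98. The genes bZIP44 and BZIP53 lie at −0.69 and −0.81. The synthesis and TCA cycle lists lie mostly under 0, with AT5G55070 at −0.91.

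The naxillin values moved with the replicates that entered. Without replicate 3 of every group, a choice made after seeing the data, the differences at 6 h of naxillin were 0.00 for MCCB, −0.01 for AKINBETA1, 0.06 for AT4G33150, 0.18 for ATG8E and 0.32 for AT4G27450. With all arrays they were −0.32, −0.31, −0.24, −0.09 and −0.34. The median of the 10 at 6 h of naxillin lay between −0.33 and 0.14 over fits that left out 1 array, above 0 without replicate 3 of naxillin 6 h. At 6 h of NAA, the values without replicate 3 of every group were −2.21 for AT4G33150, −1.81 for ATG8E and −1.42 for MCCB, close to those with all arrays.

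Genes with a like course over the 15 arrays were sought among 13503 other named probe sets, by Pearson r with the mean of the 10 genes, each scaled to unit SD. The most alike were AT2G40420 (r = 0.976), AT4G01330 (0.975), AT3G23700 (0.971), AT3G15900 (0.970) and AT4G30690 (0.969). They were followed by AT5G25630, AT1G35612 and AT5G61670 (0.968 each) and AT4G13030 and AT1G05840 (0.967 each). AT4G01330 had group means of 8.75 before treatment, 6.75 and 6.30 at 2 h and 6 h of NAA, and 7.54 and 8.47 at 2 h and 6 h of naxillin. AT2G40420 had 9.26, 8.30, 8.15, 8.68 and 9.15 in the same order. In both, NAA 6 h was lowest, before treatment highest and naxillin 6 h the nearest to it. Both were picked for likeness to the 10 on these same arrays, so this order largely came with the choice.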

How the data were processed

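The deposited values were log2 expression values per probe set, which the authors made with RMA of the R package affy 1.36.0, per the submitters' processing notes. RMA corrects background, normalises arrays to 1 distribution and summarises probes. Per the labels' protocols, bacterial control transcripts were added to 2 µg of total RNA. The 64 control probe sets were left out, leaving 22746 of 22810 for the tests. Names came from the platform annotation: 13513 probe sets had 1 gene, 503 several and 8730 none. Locus names of the 10 genes came from the RefSeq gene table of assembly TAIR10.1, and where in a gene the probes lie was not determined.

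limma 3.58.1 (R 4.3.3) fitted 1 mean per group over the 15 arrays, with 10 residual degrees of freedom. Its moderated test was two-sided, with Benjamini-Hochberg adjustment over 22746 probe sets. A gene was called at an adjusted p under 0.05. SE and 95% intervals are those of the moderated fit. Values in groups are means ± SD of 3 arrays, and the small number of arrays limits the precision. Figures used Python 3.11.15 and matplotlib 3.10.9. The fit was tested on simulated data.

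The 10 genes, the 13 lists and the tests were chosen with earlier results of these data known. Named genes were the 10, up to 3 called genes per list and contrast with the largest change (otherwise the 1 with the smallest p), and the 10 genes most like the mean of the 10 over the arrays. AT4G20930, ALDH7B4, ATG8B, ATG8C, ATG8D, APG8H, AT3G53930, AT3G18770, AT3G59950, ATG3, AT5G50230 and AT5G66930 fall outside this rule or were added after their values were seen.

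The labels number the biological replicates 1 to 3 in each group. Same-numbered arrays deviated together (r above 0.1 in all 3 pairs) for NAA 6 h against before treatment (0.16 in each) for naxillin against NAA at 6 h (0.29 to 0.31) and for NAA 6 h against NAA 2 h (0.12 to 0.33), but not for the other 5 comparisons. Across 30 pairs, 23 were above 0.1. Alternatives were a replicate block, a fit on the arrays compared, a robust prior with a trend, median centring, spike-in scaling, no dim probe sets, at least 2-fold, and leaving out each array. The spike-in scaling took the mean of 12 poly-A probe sets off the RMA values of each array. Leaving out replicate 3 of every group and the alternatives for NAA 6 h against NAA 2 h were added after seeing the data.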

Additional observations from a re-analysis of the deposited data

Results flagged for a closer look

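The course from 2 h to 6 h differed between the compounds at several of the other pathway genes. The values are the change over time in naxillin minus that in NAA (log2, n = 3 per group), tested as an interaction with limma. Among breakdown genes it was −1.98 for AT4G31810 (adjusted p = 0.00155), −1.02 for AT5G38710 (0.0477), 2.57 for MGL (0.0412) and 0.54 for DELTA-OAT (0.0497). For AT4G16360 of SnRK1 it was 0.47 (0.0096), and in the YGL and LRDR family −0.62 for AT5G43830 (0.00246) and 1.14 for AILP1 (0.000729). In autophagy APG8A had 0.84 (0.00141), ATG8H 1.16 (0.000123) and AT3G61960 0.55 (0.013).

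Among the genes of synthesis and the TCA cycle, the same difference was −0.85 for AT3G58610 (limma adjusted p = 0.0379), −1.45 for AT3G23940 (0.00266), −0.58 for AT3G53580 (0.025) and −0.87 for AT5G23250 (0.0114). It was 0.45 for SDH1-1 (0.0303) and 0.53 for SDH2-1 (0.0232). Of the tissue markers EXPA7 had 1.39 (0.0201) and RCA 1.55 (0.000246). Of all probe sets, 30.3% were called in this interaction, so that a call in it is common on these arrays.

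ETFBETA stood above its mean before treatment on all 3 naxillin 6 h arrays, by 0.23 on average, and below it on all 3 NAA 6 h arrays. In replicate 1 of naxillin 6 h the margin was small, 9.31 beside a mean of 9.30. The naxillin 6 h arrays overlapped with those before treatment, and the interval ran from −0.04 to 0.51, without a call. Under the spike-in scaling the difference was 0.09. With NAA ETFBETA stood at −0.80 at 6 h. The report gives naxillin minus NAA at 6 h, which limma called; since the gene was chosen with its results known, nothing is read from that call.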

How the results depend on the processing

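The median of the 10 genes kept its direction under every alternative run in 5 comparisons; that of naxillin 6 h turned positive without replicate 3 of naxillin 6 h (0.14) and without replicate 3 of every group (0.12). Leaving out 1 array, it lay from −0.84 to −0.62 (NAA 2 h), −1.16 to −0.85 (NAA 6 h), −0.48 to −0.22 (naxillin 2 h), −0.33 to 0.14 (naxillin 6 h), 0.13 to 0.50 (naxillin minus NAA at 2 h) and 0.74 to 1.25 (at 6 h). Under spike-in scaling the last was 0.60. Of the 40 other pathway genes, leaving out 1 array gave 2 to 4 higher and 5 to 14 lower (NAA 2 h), 8 higher and 21 to 24 lower (NAA 6 h), 1 to 2 higher and 0 to 6 lower (naxillin 2 h), and 0 to 1 higher and 0 lower (naxillin 6 h). For naxillin against NAA it gave 1 to 3 higher and 0 to 2 lower at 2 h, and 20 to 24 and 5 to 7 at 6 h.

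Asking for at least 2-fold left 1 higher and 3 lower (NAA 2 h), 3 and 7 (NAA 6 h), 0 higher (naxillin 2 h), 0 and 0 (naxillin against NAA at 2 h) and 6 and 3 (at 6 h), fewer by construction. The cause of the following moves was not tested. With only the arrays of a contrast, 1 was higher at naxillin 2 h, and 2 higher and 1 lower for naxillin against NAA at 2 h. Under a trended and robust prior, median centring or without replicate 3 of every group, 0 were lower at naxillin 2 h. Median centring gave 2 higher at naxillin 6 h and 2 higher for naxillin against NAA at 2 h. Spike-in scaling gave 1 lower at naxillin 6 h, 2 higher for naxillin against NAA at 2 h, and 13 higher and 11 lower at 6 h. Without dim probe sets 1 was higher at naxillin 6 h and 3 for naxillin against NAA at 2 h. Without replicate 3 of every group the latter had 2 higher and 0 lower. Spike-in scaling reversed naxillin minus NAA at 6 h for AT3G56840 (−0.11, limma adjusted p = 0.383) and URE (−0.36, 0.00952).

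With the replicate block, 7 were lower at naxillin 2 h, 2 higher at naxillin 6 h and 4 higher for naxillin against NAA at 2 h. In these comparisons r was not above 0.1 in all 3 same-numbered pairs, but was high in some. It was 0.57, 0.09 and 0.53 for naxillin against NAA at 2 h. Against before treatment it was −0.23, −0.17 and 0.47 at naxillin 2 h and −0.01, 0.57 and 0.37 at 6 h. The block called 9 of the 10 genes lower at 2 h of NAA in place of 7 (of all probe sets 30.3% and 25.8% called). It called 2 lower at naxillin 2 h in place of 0 (15.4% and 10.6%). For naxillin against NAA at 2 h it called 4 higher in place of 2 (21.3% and 16.1%). Where the replicates paired, the block moved the count of the 10 genes called from 7 to 8 at 6 h of NAA, where the share of all probe sets called went from 52.1% to 54.6%, and from 7 to 8 for naxillin against NAA at 6 h (50.6% to 53.4%). From 2 h to 6 h of NAA it went from 4 to 5 (41.6% to 45.3%). For naxillin against NAA at 6 h the block gained the calls of MCCA (adjusted p = 0.0329) and ATG8B (0.0487) and lost that of bZIP44 (0.0506). From 2 h to 6 h of NAA it gained, among genes named in the report, those of AT3G15450, ATG8F, AT2G37840, AT5G50230, AT5G55070, SDH2-1 and LHCB4.2 (adjusted p of 0.00904 to 0.0411). At 6 h of NAA it changed no other call of a named gene than that of AT4G27450. Values near the lower quartile of the arrays were not shown to lie above background.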
